A study of Rattus norvegicus with 10 samples.

Results

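The collagen family was examined in mammary tumours of rats, on arrays of early needle biopsies and of the whole tumours collected later. Members were all genes with a symbol of the form Col, a number, a and a number that at least 1 probe set read alone, which gave 41 genes of 14217 named on the array. Where several probe sets read a gene, the one with the highest mean signal over the 10 arrays stood for it. Members were picked by name and probe sets by mean signal over all arrays, with no use of differences between samples. The rule was set with earlier results of these data known. Of the 41 genes, 31 had a mean log2 signal above 5.15, the limit under which the dimmest 40% of probe sets lie, and 10 lay under it.

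Collagens are made of 3 protein chains wound into a triple helix. Fibrillar collagens pack into the banded fibrils that carry tension in stroma, type 4 collagens form the sheet on which epithelia, vessels and muscle rest, and type 6 collagens form beaded filaments between them. Other members sit on fibril surfaces, anchor epithelium to stroma or cross cell membranes. In mammary gland and its tumours the fibrillar chains are known mainly as products of fibroblasts, while the sheet beneath the ducts also receives chains from epithelial and myoepithelial cells.

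Tumours were induced in female Sprague-Dawley rats by a single oral dose of 100 mg/kg of the carcinogen DMBA, 7,12-dimethylbenz(alpha)anthracene, and no later treatment is given in the labels. Biopsies (5 samples, animals of 12 weeks) were Trucut needle cores of 0.7 cm by 2.5 mm, taken from tumours of 2 cm3. Total tumours (5 samples, 19 weeks) came from those same tumours, 31D3, 32D1, 37I1, 50I1 and 52I4, when the animals were killed, although the series' description calls the late samples Trucut samples too. All 5 tumours were of Bloom-Richardson grade II, so they stand for a narrow part of what DMBA induces. Nothing in the labels ties them to separate rats, and the p-values then reflect only how these 5 tumours vary. Age, kind of sample and runs of consecutive array numbers in the titles go with the group and cannot be told apart from it.

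Deposited signals lay between 2.34 and 14.26 on the log2 scale, array medians lay between 5.99 and 6.12, and Pearson correlations between arrays over all probe sets ranged from 0.95 to 0.99. The labelled tissue was checked against marker genes. All 8 epithelial markers were above the limit, and their mean log2 signal lay between 12.05 and 12.26 in the biopsies and between 12.09 and 12.42 in the total tumours. The biopsy of 37I1 stood apart. Its mean over the 9 fibroblast markers was 6.64, against 8.36 to 9.52 in the other biopsies and 8.01 to 9.53 in the total tumours. Its skeletal muscle actin Acta1 was at 11.93, against 8.13 in the biopsy of 50I1 and at most 4.91 in the other 3 biopsies, while the muscle genes Ckm, Myh2, Myh4, Tnnt3 and Actn2 were under the limit on every array. Acta1 was also high in the total tumour of 37I1, at 9.48, against 4.04 to 4.76 in the other total tumours. The 3 of 8 skeletal muscle markers above the limit averaged 9.71 in the biopsy of 37I1 and 6.95 to 8.66 in the others. Only Acta1 made this gap. Myh1 was at 10.63 in the biopsy of 37I1 and 10.18 to 10.84 in the others, and Tnni2 at 6.59 and 6.36 to 7.31. Among the biopsies, that of 50I1 had the highest fibroblast mean, 9.52. Over all arrays the total tumour of 31D3 was the highest, at 9.53.

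Collagen signals varied widely between samples but had no common direction from biopsy to total tumour. Of the 31 genes above the limit, 16 had a higher and 15 a lower mean in the total tumours, beside 51.2% higher among the 10793 genes tested. The median difference was 0.016 for the collagens and 0.0039 for all genes, on the log2 scale. In limma with the tumour as a block, 0 of the 31 passed an adjusted p under 0.05, as did 0 of 18625 probe sets (0%), and the lowest adjusted p of a collagen was 0.656. At an unadjusted p under 0.05 there were 3 collagens, beside 4.17% of all genes (6.08% of probe sets). Col7a1 and Col4a2 were lower in the total tumours, beside 2.56% of genes, and Col26a1 was higher, beside 1.61%. These 3 were also those with 1 sign in 5 of 5 pairs, which 5.83% of genes had. Col26a1 passed the limit on mean signal only through samples in which it was high (mean 4.94 in biopsies, 5.42 in total tumours). Its place in these counts therefore supports nothing. The paired test named in the study's methods gave 1 collagen at an unadjusted p under 0.05 and 0 after adjustment. In bulk tissue, fewer cells of a type and less RNA per cell cannot be told apart, here and in every value that follows.

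The spread between samples was larger than for most genes. Over the 10 arrays 21 of 31 collagens had an SD of at least 0.5, beside 17.9% of all genes, and 10 had an SD of at least 1, beside 3.19%. The median SD was 0.85 for the collagens and 0.24 for all genes. For 17 of 31 collagens the lowest of the 10 arrays was the biopsy of 37I1, beside 15.4% of all genes. For 12 the highest was the biopsy of 50I1, beside 5.24%. Without 37I1 the counts at 0.5 and at 1 were 21 and 3 of 31, beside 16.0% and 2.48% of all genes, so the second count rested mostly on that tumour. Without 50I1 they were 23 and 9. These shares describe the arrays and carry no test.

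**Figure D1:**
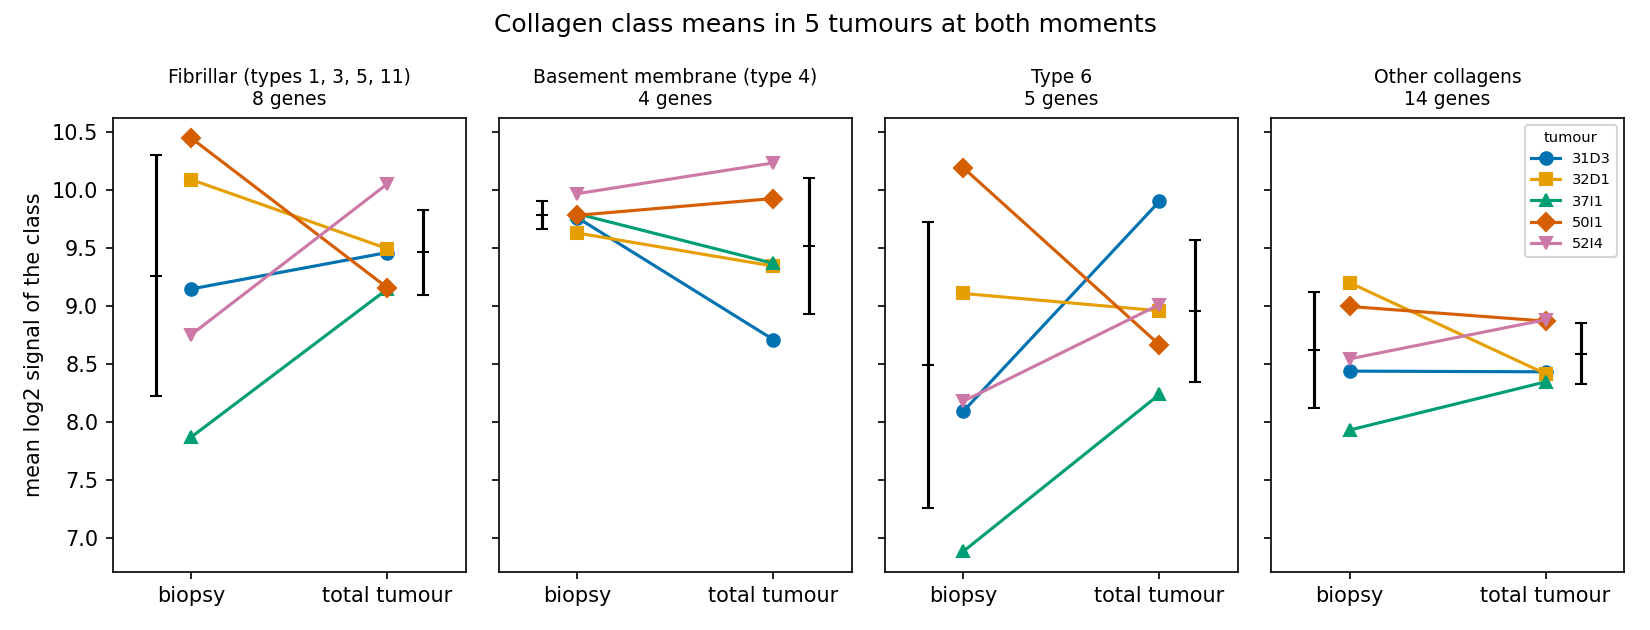
Mean log2 signal of the genes above the limit in 4 collagen classes (vertical axis) in the biopsy and the total tumour of each tumour, joined by a line; black bars are the mean and SD over 5 samples. Fibrillar and type 6 means span 2.58 and 3.30 among biopsies, while type 4 means span 0.34 there and 1.52 among total tumours.

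The fibrillar class held 8 genes, all above the limit, and its signal went opposite ways in different tumours. Values are given throughout in the tumour order 31D3, 32D1, 37I1, 50I1 and 52I4. The class mean was 9.15, 10.09, 7.87, 10.44 and 8.75 in the biopsies and 9.46, 9.49, 9.14, 9.16 and 10.05 in the total tumours. It was higher in the total tumour of 31D3, 37I1 and 52I4 and lower in that of 32D1 and 50I1, with differences of 0.31, -0.59, 1.27, -1.29 and 1.30. The groups overlapped, since the lowest and the highest of the 10 class means were both biopsies. The mean difference was 0.20 ± 1.14 (SD, n = 5 pairs), and it was -0.068 without tumour 37I1, -0.074 without 52I4 and 0.57 without 50I1.

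Col1a1 and Col1a2 encode the chains of type 1 collagen, the main fibril of connective tissue. Log2 signals of Col1a1 were 11.03, 11.97, 8.92, 12.65 and 10.09 in the biopsies. In the total tumours they were 11.10, 11.07, 10.83, 11.17 and 12.45. The biopsies of 37I1 and 50I1 thus differed 13.2-fold, and the 4 biopsies without 37I1 up to 5.9-fold, while total tumours spanned 3.06-fold, with 52I4 the highest. Col1a2 stood at 11.65, 12.62, 9.69, 13.13 and 11.02 in the biopsies and at 12.03, 12.05, 11.66, 11.72 and 13.00 in the total tumours. Its lowest and highest arrays were those of Col1a1, but the total tumour of 50I1 was second highest of the 5 for Col1a1 and second lowest for Col1a2. The mean differences were 0.39 (SE 0.601, adjusted p = 0.94 in limma) for Col1a1, or -0.099 without 52I4, and 0.47 (SE 0.538) for Col1a2, neither beyond the spread between pairs. For Col1a2 it was 0.091 without 37I1, 0.088 without 52I4 and 0.94 without 50I1.

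Col3a1 encodes the single chain of type 3 collagen, which forms thin fibrils with type 1 in soft tissue. Its biopsy signals were 12.33, 12.76, 9.61, 13.27 and 11.56. Its total tumour signals were 12.58, 12.21, 12.32, 11.89 and 13.54. The biopsy of 37I1 was the lowest array and the total tumour of 52I4 the highest. The mean difference was 0.60 (SE 0.608), with 0.072 without 37I1. By tumour it was 2.71 in 37I1, 1.97 in 52I4 and -1.38 in 50I1.

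Type 5 collagens are minor chains that start fibrils and limit their width. Col5a1 was at 7.31, 8.70, 7.07, 8.99 and 6.79 in the biopsies and 8.05, 7.94, 7.73, 7.79 and 8.73 in the total tumours. Col5a3 was at 6.63, 8.44, 6.53, 9.31 and 6.69 in the biopsies and 8.08, 7.96, 7.37, 7.56 and 9.05 in the total tumours. In both genes the biopsies of 32D1 and 50I1 were high and the other 3 biopsies low, and the total tumours lay between these levels except for 52I4, which was near the top. Col5a2, the partner chain, varied least of the 3, with 11.59, 12.08, 10.92, 12.49 and 11.66 in the biopsies and 11.42, 11.62, 11.23, 11.61 and 12.26 in the total tumours, and an SD of 0.47 over the 10 arrays against 0.99 for Col5a3.

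Col11a1 and Col11a2 encode chains of type 11 collagen, known from cartilage, the first also from activated fibroblasts of tumours. Col11a1 was at 6.89, 8.76, 4.40, 8.44 and 6.84 in the biopsies, with 37I1 under the limit, where signal is near background. Its total tumours were at 6.94, 7.45, 6.67, 5.85 and 6.21. The other 4 biopsies differed up to 3.77-fold. The total tumour of 52I4, high for types 1, 3 and 5, was not high for Col11a1, where the difference was -0.64. The mean difference of Col11a1 was -0.44 (SE 0.639), or 0.093 without 50I1 and -1.12 without 37I1. Col11a2 stayed near the limit, at 5.73, 5.36, 5.81, 5.28 and 5.36 in the biopsies and 5.48, 5.64, 5.35, 5.67 and 5.18 in the total tumours, with the biopsy of 37I1 the highest array.

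The fibroblast marker list followed the fibrillar class in sign in every tumour, with list differences of 1.13, -0.35, 1.76, -1.51 and 0.76. All 9 of its genes were above the limit. The endothelial list, with 9 of 9 genes on the array above the limit, did so too, with 0.75, -0.43, 0.60, -0.98 and 0.94. The leukocyte list (8 of 8 genes on the array above the limit) differed by 0.97, -0.33, 1.51, -1.50 and -0.53, and so had the opposite sign to the collagens in 52I4. The part of these cells in the collagen signals was not tested.

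The mean of the type 4 collagens was nearly level among biopsies and spread out among total tumours. Single genes varied more than their mean, with a median SD of 0.24 among biopsies and 0.63 among total tumours, beside 0.25 and 0.22 for all genes. Gene means were lower in the total tumours for all 4 genes above the limit, though none passed the test, and no test compared them with the fibrillar class. The class mean was 9.76, 9.63, 9.79, 9.78 and 9.97 in the biopsies and 8.71, 9.34, 9.37, 9.92 and 10.23 in the total tumours. Differences were -1.05, -0.28, -0.43, 0.14 and 0.26, lower in 31D3, 32D1 and 37I1 and higher in 50I1 and 52I4. The mean difference was -0.27 ± 0.52 (SD, n = 5 pairs), and it was -0.076 without 31D3 and -0.40 without 52I4.

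Col4a1 and Col4a2 encode the chains of the common basement membrane molecule found under nearly all epithelia and vessels. Biopsies had Col4a1 signals of 11.77, 11.89, 11.83, 12.14 and 12.15. Total tumours had 11.06, 11.40, 11.45, 12.06 and 12.30. Col4a2 was at 10.85, 10.62, 10.51, 11.12 and 11.23 in the biopsies and at 10.04, 9.98, 10.14, 11.07 and 11.19 in the total tumours. It was lower in 5 of 5 pairs, with differences of -0.82, -0.64, -0.37, -0.050 and -0.036, almost level in 50I1 and 52I4. Among all genes 3.42% were lower in 5 of 5 pairs, and among the 31 collagens 2 were, Col4a2 and Col7a1. For Col4a2 the mean difference was -0.38 (SE 0.147, adjusted p = 0.787 in limma; exact sign-flip permutation p = 0.0625, two-sided, the smallest that 5 pairs allow). Col4a1 differed by -0.30 (SE 0.144, adjusted p = 0.846 in limma).

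Col4a5 and Col4a6 encode chains of a second network found under some epithelia and around smooth muscle. Col4a5 was at 10.29, 9.83, 10.54, 9.81 and 10.31 in the biopsies and 8.67, 9.93, 9.96, 10.24 and 10.56 in the total tumours. Col4a6 was at 6.13, 6.17, 6.29, 6.05 and 6.17 in the biopsies and 5.07, 6.07, 5.91, 6.34 and 6.87 in the total tumours. In the total tumour of 31D3 both were the lowest of the 10 arrays, with differences of -1.61 and -1.06 from its biopsy, the reverse of type 6 in that tumour. Col4a6 lay under the limit there, so the size of its difference is uncertain, and its other probe set gave -1.91. Without 31D3 the mean differences were 0.049 for Col4a5 and 0.12 for Col4a6. Col4a4, a chain known from kidney and other specialised basement membranes, lay under the limit, between 3.74 and 4.27.

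Markers of cells that rest on a basement membrane are given beside these values. The smooth muscle and pericyte list, with 6 of its 7 genes on the array above the limit, differed by -0.24, -0.26, -0.56, -0.16 and -0.24, so it was lower in every tumour. The epithelial list differed by 0.094, 0.16, -0.058, 0.22 and 0.11. The endothelial list was higher by 0.75 in 31D3, where type 4 was lowest. The part of these cells in the type 4 signal was not tested.

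Type 6 collagens, 5 genes above the limit, held chains with a course like the fibrillar class and chains with courses of their own. The class mean was 8.09, 9.11, 6.88, 10.19 and 8.18 in the biopsies and 9.90, 8.96, 8.24, 8.66 and 9.01 in the total tumours. The pair differences were 1.81, -0.15, 1.35, -1.52 and 0.83, largest in 31D3, where fibrillar genes differed by only 0.31. Their mean was 0.46 ± 1.33 (SD, n = 5 pairs), 0.13 without 31D3, 0.24 without 37I1 and 0.96 without 50I1.

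Col6a1 and Col6a2 encode partner chains of the classical type 6 molecule. Col6a1 signals were 10.27, 11.57, 8.56, 12.21 and 10.13 in the biopsies and 11.94, 11.06, 10.63, 10.91 and 11.54 in the total tumours. Those of Col6a2 were 9.59, 10.85, 8.04, 11.69 and 9.41 in the biopsies and 11.50, 10.23, 9.85, 10.07 and 10.93 in the total tumours. The biopsy of 37I1 was lowest and that of 50I1 highest for each, and the total tumour of 31D3 was the second highest array. Col6a3, the longest chain of the same molecule, was at 8.72, 10.97, 8.91, 11.45 and 8.98 in the biopsies and 9.99, 9.85, 9.06, 9.71 and 10.26 in the total tumours. It departed from its partners in 37I1, where Col6a1 and Col6a2 differed by 2.07 and 1.81 but Col6a3 by 0.15. The other Col6a3 probe set differed by 0.061 there.

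Col6a5 and Col6a6 encode chains that can take the place of the Col6a3 chain. Col6a5 had the largest SD of the 31 collagens, 1.55. It was at 6.21, 7.12, 4.89, 8.65 and 5.35 in the biopsies and at 9.58, 8.23, 6.87, 5.66 and 5.86 in the total tumours. It was highest in the total tumour of 31D3, with a pair difference of 3.37, and differed by -3.00 in 50I1. Col6a6 was at 5.67, 5.01, 4.02, 6.94 and 7.02 in the biopsies and 6.49, 5.42, 4.77, 6.96 and 6.46 in the total tumours. Tumour 50I1 was high and 37I1 the lowest at both moments. Both arrays of 37I1 and the biopsy of 32D1 lay under the limit, where signal is near background. In the test among the 5 tumours Col6a6 had the lowest p of the collagens (unadjusted p = 9.57e-04, adjusted p = 0.168 in limma), which did not pass. That p rests in part on these dim signals.

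The remaining collagens numbered 23, of which 14 were above the limit, and they fell into roles with different patterns. Their class mean was 8.44, 9.20, 7.93, 8.99 and 8.54 in the biopsies and 8.43, 8.41, 8.34, 8.87 and 8.88 in the total tumours, and the pair differences had a mean of -0.033 ± 0.48 (SD, n = 5 pairs). That mean was 0.16 without 32D1.

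Fibril-associated collagens coat the surface of fibrils. Col12a1, a collagen of this kind, known from dense connective tissue and tumour stroma, was at 9.31, 10.05, 7.32, 10.44 and 8.50 in the biopsies and 9.13, 9.01, 8.58, 7.71 and 8.23 in the total tumours. It was high in the biopsies of 32D1 and 50I1, and 50I1 differed by -2.72. Its 2 other probe sets differed by -2.47 and -2.36 in 50I1. Col14a1, another collagen of fibril surfaces, ranged from 10.67 to 11.98, and Col16a1 from 8.05 to 9.15.

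Col8a1 and Col8a2 encode short-chain collagens known from vessel walls and the cornea. Col8a1 was at 8.41, 9.11, 6.0, 9.82 and 8.0 in the biopsies and 8.91, 8.10, 7.49, 6.88 and 7.67 in the total tumours. Col8a2 was at 8.31, 8.58, 5.56, 8.66 and 8.02 in the biopsies and 8.85, 8.0, 7.76, 7.57 and 8.55 in the total tumours. The biopsy of 37I1 was the lowest array for each. In 50I1 Col8a1 differed by -2.93 and Col8a2 by -1.09.

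Col15a1 and Col18a1 encode collagens with sugar chains at the border of basement membrane and stroma, the second also the source of endostatin. Col15a1 was at 9.09, 10.24, 7.50, 10.26 and 9.10 in the biopsies and 9.37, 9.24, 8.97, 9.33 and 9.93 in the total tumours. Of all 31 collagens it lay nearest to the mean profile of the fibrillar class. Col18a1 was at 8.85, 10.44, 9.15, 10.21 and 9.71 in the biopsies and 9.18, 9.65, 9.14, 9.79 and 10.09 in the total tumours, with 31D3 low and 32D1 and 50I1 high at the first moment. Its biopsy of 37I1 was not the lowest array.

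Col7a1 encodes the anchoring fibrils that tie an epithelial basement membrane to stroma, and it had the smallest p of the family. Its biopsies were level, at 8.54, 8.24, 8.36, 8.34 and 8.43. Its total tumours were at 7.14, 7.42, 7.79, 7.90 and 8.28. The groups overlapped only through the total tumour of 52I4. Every pair was lower in the total tumour, with differences of -1.40, -0.81, -0.57, -0.44 and -0.14. The biopsy mean was 8.38 ± 0.11 (SD, n = 5) and that of the total tumours 7.71 ± 0.44 (SD, n = 5). They differed by -0.67 (SE 0.184, unadjusted p = 0.00934, adjusted p = 0.656 in limma). The exact sign-flip permutation p was 0.0625 (two-sided, n = 5 pairs), the smallest this design can give. Without 31D3 the difference was -0.49 and without 52I4 -0.81. Col17a1, which crosses the membrane of epithelial cells in hemidesmosomes, ranged from 9.11 to 10.26 and was lower in 3 of 5 pairs.

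Col26a1, a collagen first known from testis and ovary, was the only 1 of the 31 that was higher in 5 of 5 pairs, beside 2.41% of all genes. Its signals were 4.76, 4.54, 4.40, 6.05 and 4.98 in the biopsies and 4.90, 4.81, 4.43, 6.88 and 6.08 in the total tumours. Only the arrays of 50I1 and the total tumour of 52I4 lay above the limit, so the pair differences of 0.030 in 37I1 and 0.15 in 31D3 lie among dim signals. Col26a1 passed the limit on mean signal only through those arrays, so its count of pairs supports nothing. The mean difference was 0.48 (SE 0.182, adjusted p = 0.787 in limma).

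Cartilage collagens were read in these tumours without the other cartilage markers. Col2a1, the fibril of cartilage, was at 9.97, 11.82, 10.44, 10.17 and 10.40 in the biopsies and 9.91, 10.70, 9.80, 11.13 and 11.06 in the total tumours. The biopsy of 32D1 was the highest, above the 9.97 to 10.44 of the other biopsies. Col9a1, a chain that decorates such fibrils, was at 4.07, 6.85, 5.89, 3.93 and 4.57 in the biopsies and 3.99, 5.03, 5.34, 7.89 and 5.15 in the total tumours. Its biopsies of 31D3, 50I1 and 52I4 lay under the limit, as did its total tumours of 31D3, 32D1 and, narrowly, 52I4. So no size is given for the difference in 50I1, where the total tumour was the highest array, and its spread over the arrays is partly among dim signals. Col9a3 was at 7.35, 9.62, 9.22, 8.66 and 8.71 in the biopsies and 7.40, 8.55, 9.68, 9.24 and 9.63 in the total tumours, low in 31D3 at both moments, and Col9a2 ranged from 8.40 to 9.66. Of 7 cartilage markers listed, 5 were on the array, and Acan, Comp, Matn1, Hapln1 and Cnmd were all under the limit, with mean log2 signals of 4.78, 3.75, 4.52, 3.83 and 3.69. The 3 Col2a1 probe sets had mean signals of 10.54, 6.79 and 4.86, the last under the limit. Their mean differences were -0.041, 0.021 and -1.08. In 32D1 they differed by -1.11, -0.24 and -2.05, so the level of Col2a1 and the size of its difference there depend on the probe set.

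The 10 genes under the limit were Col4a4 and, among the rest, Col10a1, Col13a1, Col19a1, Col20a1, Col22a1, Col23a1, Col24a1, Col25a1 and Col27a1. Their lowest and highest values over the 10 arrays lay between 2.92 and 6.20. Only Col13a1, Col22a1, Col23a1 and Col27a1 passed 5.15 on any array. Col13a1, a membrane collagen of cell junctions, reached 6.20 in the total tumour of 31D3 and 5.93 in that of 52I4.

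**Figure D2:**
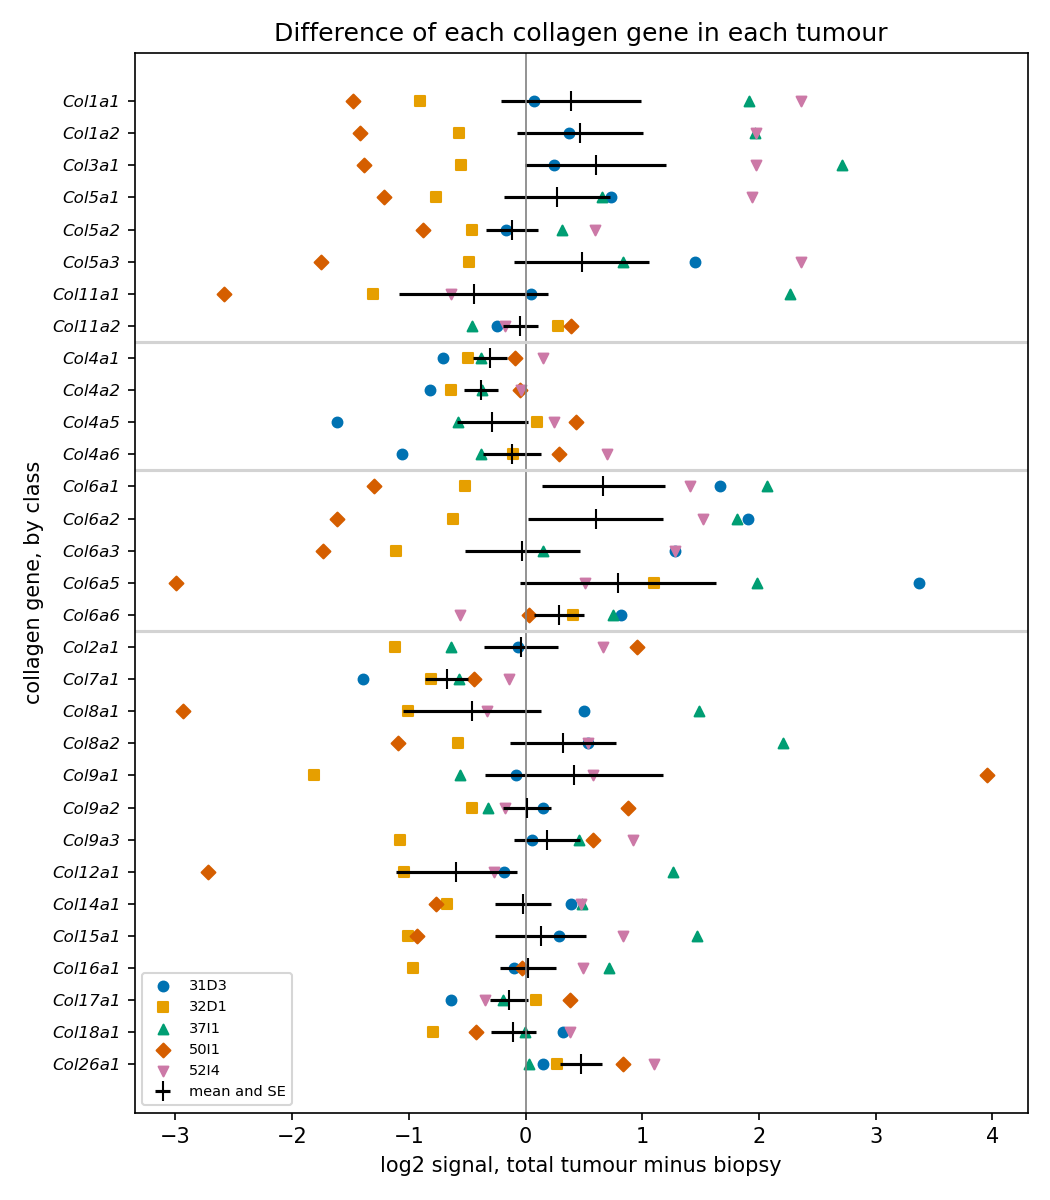
Log2 signal of the total tumour minus that of its biopsy (horizontal axis) for each of the 31 collagens above the limit, 1 symbol per tumour, with the mean and limma's SE in black; grey lines part the fibrillar, type 4, type 6 and other classes. Symbols of 50I1 lie to the left and those of 37I1 and 52I4 to the right for most fibrillar genes, whereas Col7a1 has all 5 symbols left of 0.

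The spread among biopsies was set beside that among total tumours, gene by gene. All 8 fibrillar genes varied more among the biopsies, as did 4 of 5 type 6 genes and 9 of the 14 others, while 0 of 4 type 4 genes did, beside 59.2% of all genes. For Col1a1 the SD was 1.48 among biopsies and 0.64 among total tumours. For Col4a6 it was 0.086 and 0.66. Class means had an SD of 1.04 and 0.37 for fibrillar genes and 0.12 and 0.59 for type 4 genes. The fibrillar count rested partly on 37I1 and 50I1. It was 7 of 8 without 37I1 and 5 of 8 without either, while the type 4 count was 0 of 4 without either and 1 of 4 without 31D3. Over all genes the share without 37I1 and 50I1 was 59.3%. No test was made of these counts.

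**Figure D3:**
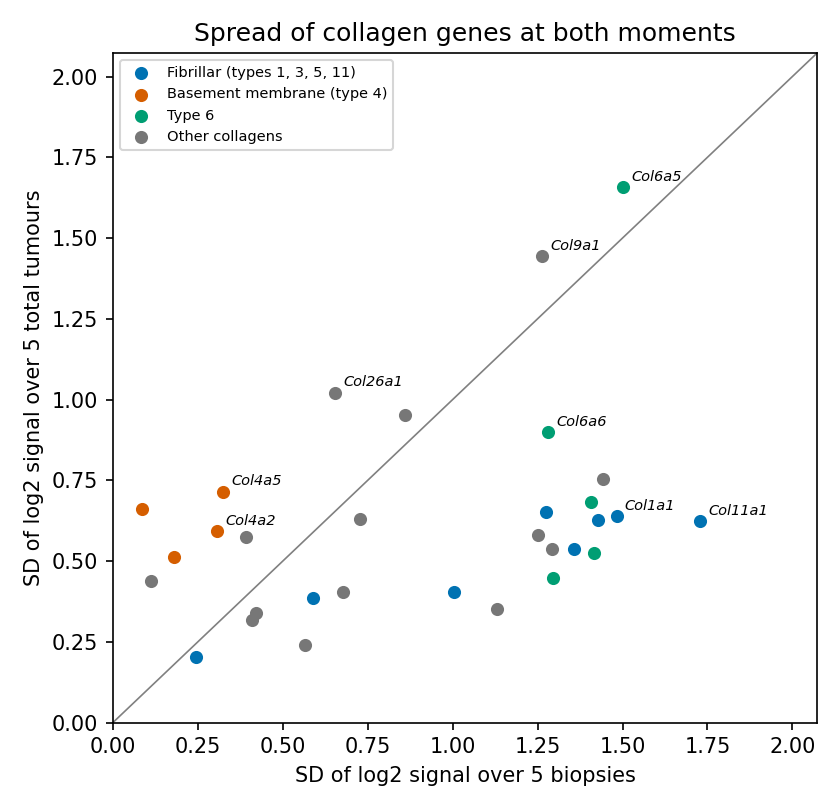
SD of the log2 signal over the 5 biopsies (horizontal axis) and over the 5 total tumours (vertical axis) of each of the 31 collagens above the limit, coloured by class; the grey line marks equal SDs. The 8 fibrillar genes lie below the line and the 4 type 4 genes above it.

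Differences between tumours, over both moments, were tested in the same fit. In limma's moderated F test among tumours 0 of the 31 collagens passed an adjusted p under 0.05, where 16 of 18625 probe sets did (0.0859%), or 0.0371% of genes. At an unadjusted p under 0.05 there were 6, namely Col6a6, Col26a1, Col4a2, Col9a3, Col18a1 and Col4a1, beside 10.1% of all genes and 10.5% of probe sets. The count was 3 without 31D3. None of these 6 is a fibrillar gene. Col26a1 passed the limit on mean signal only through the tumours in which it was high, so its place in this count supports nothing. Col6a6 lay under the limit on both arrays of 37I1, so its place rests in part on signal near background. Col26a1 was highest in 50I1 at both moments, and Col9a3 was lowest in 31D3 at both.

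Profiles of the members over the 10 arrays were then set against each other. Likeness was measured as the root mean square difference between log2 profiles, each centred on its own mean, so that 0 means the same course over the 10 arrays. This measure favours genes that vary little. Among the 465 pairs of the 31 collagens, the 4 closest were all pairs of chains that join into 1 molecule. These were Col6a1 with Col6a2 (0.13), Col1a1 with Col1a2 (0.17), Col4a1 with Col4a2 (0.17) and Col4a5 with Col4a6 (0.22). With profiles scaled to the same SD, an alternative added after the data were seen, these pairs ranked 1, 2, 10 and 22 of 465. With any 1 tumour left out the largest rank numbers they took were 1, 4, 3 and 9. Among total tumours alone they ranked 6, 12, 11 and 8. Among biopsies alone they ranked 1, 4, 9 and 19. The ranks are descriptions with no test, since the arrays come from 5 tumours.

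Not all partner chains were so close. Col6a3 ranked 113 with Col6a1 and 108 with Col6a2, Col5a1 ranked 49 with Col5a2, and Col9a1 ranked 403 with Col9a2. Col11a1 with Col11a2 ranked 412, the second being near the limit.

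**Figure D4:**
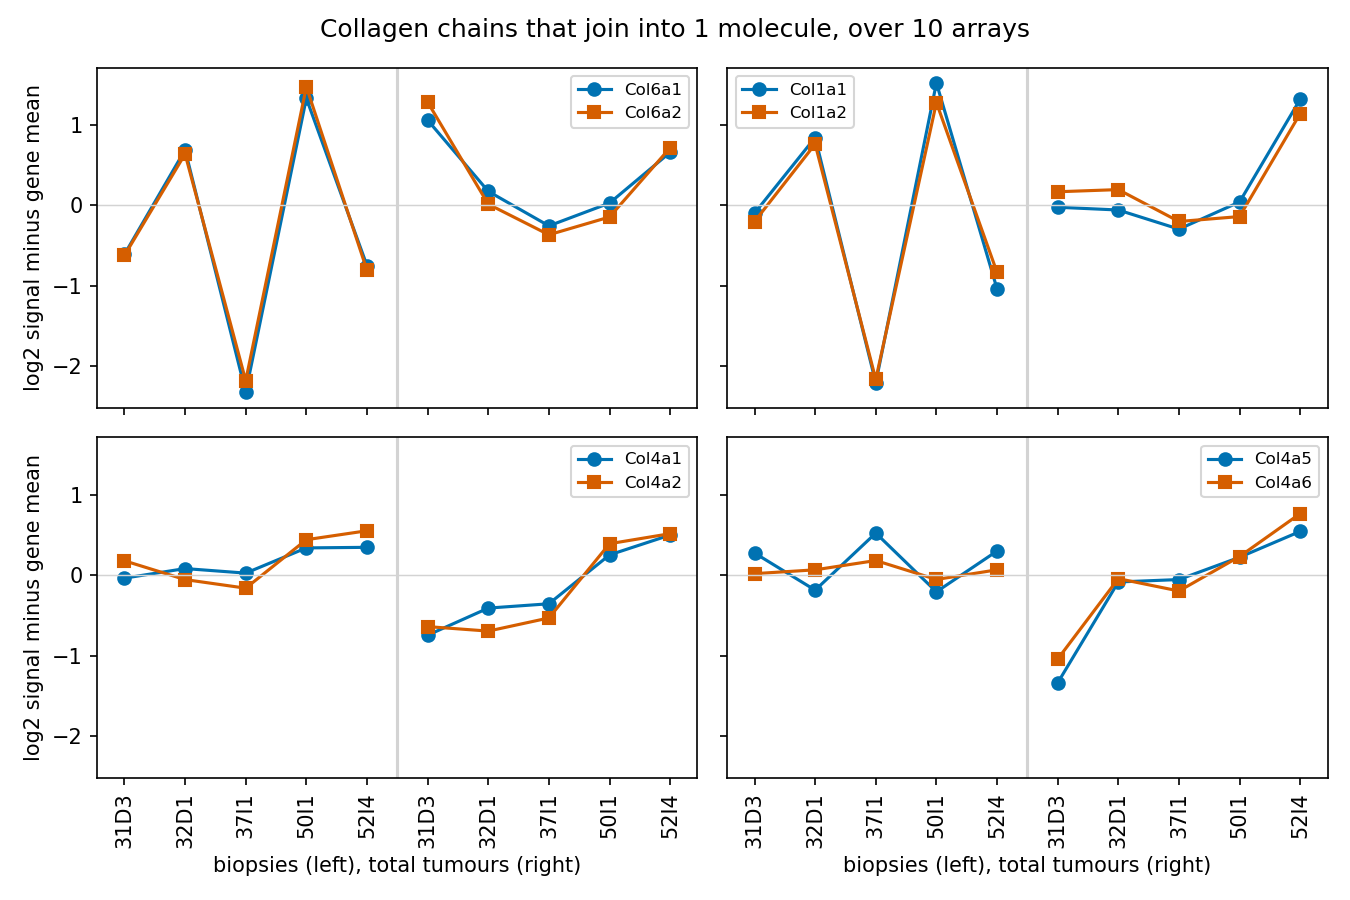
Log2 signal minus the gene's mean over 10 arrays (vertical axis) for 4 pairs of collagen chains that assemble together, by tumour, biopsies left and total tumours right of the grey line; lines only guide the eye. The root mean square gap between the curves runs from 0.13 for Col6a1 and Col6a2 to 0.22 for Col4a5 and Col4a6.

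Position was compared next, from the RefSeq gene table. Col4a1 and Col4a2 are neighbours that start 76 bases apart on opposite strands, Col4a5 and Col4a6 start 1414 bases apart on opposite strands, and Col6a1 and Col6a2 are neighbours. Col1a1 and Col1a2 are not neighbours, and their profiles were the second closest. Col3a1 and Col5a2 are neighbours and ranked 162 of 465, and Col6a5 and Col6a6 are neighbours and ranked 444. Of the 5 neighbouring pairs above the limit, 3 were thus among the 4 closest pairs by the unscaled measure, which favours genes that vary little. With profiles scaled to the same SD, these 3 ranked 1 (Col6a1 and Col6a2), 10 (Col4a1 and Col4a2) and 22 (Col4a5 and Col4a6).

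Of the close pairs, sequences before the start sites are shown for the type 4 genes and for Col1a2, and not for Col6a1. They are taken from RefSeq (build GRCr8), where 32 of the 41 collagens were found. Col1a1, Col2a1, Col3a1, Col6a2, Col9a3, Col12a1, Col14a1, Col22a1 and Col25a1 were not matched. Each is written 5′ to 3′ on the strand of the gene, and capitals mark the letters CCAAT or TATAAA or GGGCGG read on either strand. The stretch between the starts of Col4a2 and Col4a1 lies at chr16:84885521-84885596, plus strand, 250 bases before Col4a5 at chrX:109907109-109907358, plus strand, those before Col4a6 at chrX:109905945-109906194, minus strand, and those before Col1a2 at chr4:33518307-33518556, plus strand.
Col4a2-Col4a1: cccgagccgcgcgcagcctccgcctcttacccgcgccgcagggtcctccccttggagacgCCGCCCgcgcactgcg
Col4a5: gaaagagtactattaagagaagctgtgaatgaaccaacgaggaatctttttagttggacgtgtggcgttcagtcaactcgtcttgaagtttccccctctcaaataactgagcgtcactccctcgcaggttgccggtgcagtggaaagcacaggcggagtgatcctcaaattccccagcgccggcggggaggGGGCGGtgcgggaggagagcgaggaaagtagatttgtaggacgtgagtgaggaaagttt
Col4a6: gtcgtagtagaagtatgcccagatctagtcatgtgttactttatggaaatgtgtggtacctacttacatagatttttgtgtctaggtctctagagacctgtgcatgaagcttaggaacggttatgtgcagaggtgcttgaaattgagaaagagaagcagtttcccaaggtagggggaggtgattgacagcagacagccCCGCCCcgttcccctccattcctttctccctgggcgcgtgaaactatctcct
Col1a2: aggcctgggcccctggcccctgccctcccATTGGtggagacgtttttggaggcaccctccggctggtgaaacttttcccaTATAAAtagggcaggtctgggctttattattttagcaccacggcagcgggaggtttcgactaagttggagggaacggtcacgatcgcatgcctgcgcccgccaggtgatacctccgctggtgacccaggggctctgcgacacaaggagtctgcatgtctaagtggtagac

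Each type 4 stretch held GGGCGG on 1 strand or the other, and the Col1a2 stretch held CCAAT, on the reverse strand, and TATAAA. These 2 matches in Col1a2 begin 221 and 170 bases before the start site. No 2 of the printed matches overlap. Over the 250 bases before all 33469 starts of the table, searched on both strands, CCAAT was found in 34.0%, TATAAA in 12.9% and GGGCGG in 30.5%. Over the 35 starts of collagen genes the shares were 28.6%, 11.4% and 54.3%. A match of letters is a description and says nothing of what binds there.

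The mean profile of the fibrillar class was used to order the other collagens, each fibrillar gene being compared with the mean of the other 7. Col15a1 was nearest (0.21), before Col1a2 (0.31), Col5a1 (0.34), Col14a1 (0.36), Col5a2 (0.41) and Col1a1 (0.43). Col6a1, Col6a3 and Col6a2 followed at 0.44, 0.45 and 0.48. The fibrillar genes Col11a1 (0.86) and Col11a2 (0.97) lay farther away than Col4a1 (0.74), Col4a2 (0.78) and Col4a6 (0.81), though not than Col4a5 (1.0). Farthest were Col9a1 (1.51), which was under the limit on several arrays, and Col6a5 (1.19). Against the mean of Col4a1 and Col4a2, the nearest collagens other than these were Col7a1 (0.27) and Col4a6 (0.30).

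Among 10762 other genes, the 8 nearest to the fibrillar mean lay at 0.28 to 0.32, where the median gene lay at 0.74. They were Nrp1, a co-receptor for growth factors and semaphorins, Adgra2, an adhesion receptor, Mmp23, a membrane protease, Oaf, Bgn, a proteoglycan that binds collagen, Nid2, a basement membrane protein, Prss23, a secreted protease, and Selenom, a selenoprotein. The 8 nearest to the mean of Col4a1 and Col4a2 lay at 0.17 to 0.20, where the median gene lay at 0.46. First of these was Nid1, which links laminin to type 4 collagen, followed by Slc25a42, Zfp799, Inka1, Cachd1, Smo, Nme4 and Mast4.

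**Figure D5:**
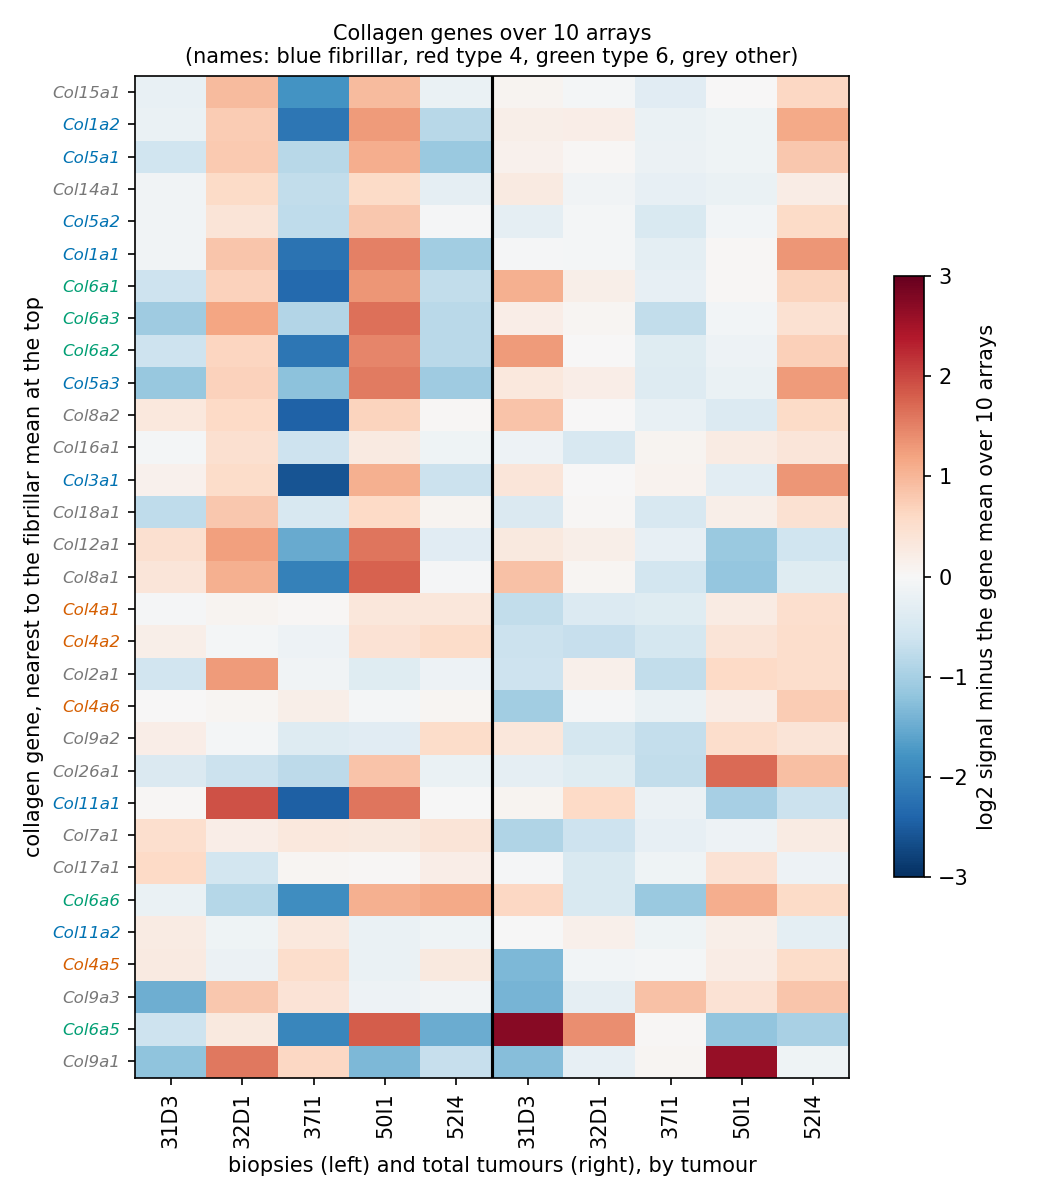
Log2 signal minus the gene's mean over 10 arrays (colour) for the 31 collagens above the limit, ordered by distance from the mean fibrillar profile, with biopsies left and total tumours right of the black line. The biopsy of 37I1 is blue and those of 32D1 and 50I1 red in most of the upper rows. Type 4 genes lie below them, as do the fibrillar genes Col11a1 and Col11a2.

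Other genes of collagen biology were read from lists, with no gene of any list passing an adjusted p under 0.05. The lists are described by their counts and by their median difference, beside a median of 0.0039 over all genes tested. Enzymes and chaperones that fold and modify collagen inside the cell had 15 of 17 genes on the array above the limit, 12 with a higher and 3 with a lower mean in the total tumours, and a median of 0.049. Plod2, a lysyl hydroxylase, differed by 0.38 (SE 0.421) and the prolyl hydroxylase subunits P4ha1 and P4ha2 by 0.29 (SE 0.33) and -0.18 (SE 0.195). The list mean differed by 0.55, -0.42, 0.32, -0.34 and 0.18 in the 5 tumours, with the same signs as the fibrillar class. With a tumour left out, Plod2 ranged from 0.044 (without 31D3) to 0.80 (without 32D1), P4ha1 from -0.053 (without 31D3) to 0.56 (without 32D1) and P4ha2 from -0.34 (without 31D3) to -0.037 (without 52I4).

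Enzymes that trim procollagen and cross-link fibrils had 8 of 8 genes above the limit, 5 higher and 3 lower, and a median of 0.038. Lox, which cross-links fibrillar collagen, was at 9.26, 10.32, 4.18, 10.58 and 8.69 in the biopsies and 10.74, 9.36, 9.12, 7.95 and 9.08 in the total tumours. Like Col1a1 and Col3a1 it was lowest in the biopsy of 37I1, where it lay under the limit. Its relative Loxl1 differed by 0.58 (SE 0.641) and Pcolce, which helps the trimming of procollagen, by 0.35 (SE 0.443). With a tumour left out, Lox ranged from -0.43 (without 37I1) to 1.47 (without 50I1), Loxl1 from -0.095 (without 37I1) to 1.09 (without 50I1) and Pcolce from 0.047 (without 37I1) to 0.78 (without 50I1).

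Proteins that bind fibrils had 13 of 14 genes above the limit, 10 higher and 3 lower, with a median of 0.49. Ogn, a small proteoglycan, differed by 1.49 (SE 0.988), Dpt, which binds decorin, by 1.22 (SE 1.03) and Aspn, another small proteoglycan, by 0.85 (SE 0.681). Biopsy 37I1 lay under the limit for Ogn (3.0) and Dpt (4.64). Aspn lay under it in every biopsy but that of 50I1 (5.81), and in the total tumours of 32D1 (4.13) and 50I1 (4.71). Its biopsy mean was 4.86, so it passed the limit only through arrays in which it was high, and the size of its difference is uncertain. With a tumour left out, Ogn ranged from 0.56 (without 37I1) to 2.49 (without 50I1), Dpt from 0.34 (without 37I1) to 2.13 (without 50I1) and Aspn from 0.12 (without 52I4) to 1.34 (without 50I1). Fmod, also a proteoglycan of fibrils, was the only gene of this list at an unadjusted p under 0.05, beside 4.17% of all genes. It differed by -0.74 (SE 0.262, adjusted p = 0.739 in limma) and ranged from -0.91 (without 32D1) to -0.44 (without 31D3). The list mean differed by 0.70, -0.32, 2.02, -1.25 and 1.21.

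Partners of type 4 in the basement membrane had 15 of 16 genes above the limit, 4 higher and 11 lower, with a median of -0.21. The laminin chain Lamc1, named after its values were seen, was lower in 5 of 5 pairs, beside 3.42% of all genes. It differed by -0.32 (SE 0.125, adjusted p = 0.788 in limma). It was the only gene of this list at an unadjusted p under 0.05, beside 4.17% of all genes. Lama5 differed by -0.56 (SE 0.331), Lama3 by -0.43 (SE 0.302) and the calcium-binding protein Smoc2 by 0.72 (SE 0.654). The list mean differed by -0.20, -0.53, 0.19, -0.41 and 0.31, so it shared the sign of type 4 in 31D3, 32D1 and 52I4 but not in 37I1 and 50I1. With a tumour left out, Lama5 ranged from -0.91 (without 37I1) to -0.30 (without 52I4), Lama3 from -0.69 (without 32D1) to -0.21 (without 37I1) and Smoc2 from 0.010 (without 37I1) to 1.19 (without 50I1).

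Collagen receptors had 4 of 5 genes above the limit, 1 higher and 3 lower, and a median of -0.084. The integrin chain Itga1 differed by -0.50 (SE 0.382), the receptor kinase Ddr2 by 0.52 (SE 0.398) and its epithelial relative Ddr1 by -0.14 (SE 0.152). With a tumour left out, Itga1 ranged from -0.87 (without 31D3) to -0.25 (without 32D1), Ddr2 from 0.098 (without 37I1) to 0.78 (without 32D1) and Ddr1 from -0.23 (without 32D1) to 0.0094 (without 31D3). Proteases that cut collagen and their inhibitors had 9 of 11 genes above the limit, 7 higher and 2 lower, with a median of 0.41. The collagenase Mmp13 differed by 1.10 (SE 0.535), the protease inhibitor Timp1 by 0.56 (SE 0.414) and the cathepsin Ctsk by 0.51 (SE 0.437). Here Mmp13 ranged from 0.60 (without 52I4) to 1.49 (without 50I1), Timp1 from 0.24 (without 31D3) to 0.87 (without 50I1) and Ctsk from 0.15 (without 37I1) to 0.94 (without 50I1). Signals known to drive fibrosis had 11 of 12 genes above the limit, 7 higher and 4 lower, with a median of 0.0080. Tgfb3 and Tgfb2 differed by 0.53 (SE 0.275) and 0.45 (SE 0.261), and Pdgfc, a growth factor for stromal cells, by 0.33 (SE 0.127) with an adjusted p of 0.798 in limma. With a tumour left out, Tgfb3 ranged from 0.34 (without 37I1) to 0.80 (without 32D1), and Tgfb2 from 0.27 (without 37I1) to 0.72 (without 32D1).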

How the data were processed

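RNA of 10 samples was read on Affymetrix Rat Genome 230 2.0 arrays. The deposited values are log2 signals that the authors normalized with RMA, per the submitters' processing notes. RMA sets all arrays to 1 distribution, so a shift shared by most transcripts is removed. That the scale is log2 follows from the range of values. No RMA version or chip definition is given in the sources used here. The series' description names GeneSpring GX 7.3 for the statistics.

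Of 31099 probe sets, 57 controls were left out. The platform annotation gave 1 gene to 20826 of the remaining 31042, several to 436 and none to 9780. Symbols were updated by gene identifier to the RefSeq gene table (GRCr8), which altered 0 of the 58 collagen probe sets. The dimmest 40% by mean signal were not tested, leaving 18625 probe sets and 10793 genes, with 44 collagen probe sets. Of the 41 collagens 14 had several probe sets. Of 13 with several above the limit, Col2a1 and Col6a3 had probe sets of opposite sign.

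Total tumours were compared with biopsies, and tumours with each other, in limma 3.58.1 (lmFit, eBayes; R 4.3.3). The tumour was a block, since the labels give the same 5 tumour names in both groups and the study's methods name a paired test. Deviations from the group means correlated above 0.1 in 4 of 5 pairs and at -0.21 in 50I1. Of 20 pairs of different tumours 6 were also above 0.1, the highest at 0.36. Benjamini-Hochberg adjustment ran over all 18625 probe sets, with a threshold of 0.05. Single genes were also tested by exact sign-flip permutation. The steps were tested on simulated data. Members and lists were chosen with earlier results of these data known. Values on every array were given for all fibrillar, type 4 and type 6 genes above the limit and for the 10 others with the largest SD or with 5 pairs of 1 sign. From each list the 3 genes with the largest difference and that with the largest SD were named, and Fmod and Lamc1 after their values were seen. Genes of like profile were the 8 nearest by root mean square distance. Figures were drawn with matplotlib 3.10.9. The number of arrays limits the precision.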

Additional observations from a re-analysis of the deposited data

Results flagged for a closer look

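Dixon's gap ratio was applied to the 31 genes and 4 class means in each group of 5 samples, 70 groups in all, and 3 passed its critical value of 0.71, where chance gives about 3.5 (1 in 20). Col1a1 in the total tumour of 52I4, at 12.45, lay far above the other total tumours, which ran from 10.83 to 11.17. Col2a1 in the biopsy of 32D1, at 11.82, lay far above the other biopsies, from 9.97 to 10.44. That value comes from the Col2a1 probe set with the highest mean, and its others were not put through this check. Col8a2 in the biopsy of 37I1, at 5.56, lay far below the other biopsies, from 8.02 to 8.66.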

How the results depend on the processing

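No collagen passed an adjusted p under 0.05 under any alternative that was run, for either comparison. At an unadjusted p under 0.05 the count for total tumours against biopsies was 3, and 1 without the tumour as a block (no replicate block), 1 with the methods' paired test and 2 to 5 with a tumour left out. Leaving out the block changed no call at an adjusted p under 0.05. Among tumours the count of 6 was 3 to 7 with a tumour left out.

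The SD of class means with a tumour left out was 0.19 to 0.43 for fibrillar genes among total tumours, 0.35 to 0.71 for type 6 among total tumours and 0.076 to 0.14 for type 4 among biopsies, where the median over members gave 0.20. With no filter the SD of the remaining collagens was 0.31 among biopsies and 0.16 among total tumours. Counts of genes more variable among biopsies, an alternative added after the data were seen, were 5 of 8 fibrillar genes without 37I1 and 50I1 and 0 to 1 of 4 type 4 genes with a tumour left out. Collagens with an SD of at least 1 over the arrays numbered 3 to 9 without 37I1 or without 50I1 and 3 without both, against 10. Mean class differences moved by less than the SD over pairs in every alternative run.

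The sign of the mean difference held for 14 of 31 genes whichever tumour was left out. For the other 17 it turned without at least 1 tumour, with ranges of Col1a1 -0.099 to 0.86, Col5a1 -0.15 to 0.64, Col5a2 -0.30 to 0.072, Col11a1 -1.12 to 0.093, Col11a2 -0.15 to 0.061, Col4a5 -0.46 to 0.049, Col4a6 -0.32 to 0.12, Col6a3 -0.35 to 0.40, Col2a1 -0.29 to 0.23, Col8a1 -0.94 to 0.16, Col8a2 -0.15 to 0.68, Col9a1 -0.47 to 0.97, Col9a2 -0.20 to 0.13, Col14a1 -0.14 to 0.17, Col15a1 -0.20 to 0.41, Col16a1 -0.15 to 0.27 and Col18a1 -0.23 to 0.068. Of the named genes of the lists, these also turned, with ranges of P4ha1 -0.053 to 0.56, Lox -0.43 to 1.47, Loxl1 -0.095 to 1.09 and Ddr1 -0.23 to 0.0094. With arrays centred on their medians, which moved the median of all genes to 0.036, Col6a3 was at 0.0053 and Col14a1 at 0.014. The cause was not tested. Genes under 5.15, where signal is near background, were not tested for difference.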

Other observations

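Bone sialoprotein Ibsp, a gene of the bone marker list, had a mean log2 signal of 3.80 and so lay under the limit, but it was at 7.33 in the biopsy of 50I1, where Col1a1, Col3a1, Col5a3, Col8a1 and Col12a1 had their highest biopsy signals. It was at 4.77 in the total tumour of 31D3 and between 2.98 and 3.43 on the other 8 arrays. The other bone markers on the array, Bglap, Dmp1 and Phex, had means of 3.30, 3.69 and 2.97. Ibsp was singled out after its values were seen, and no test was made of it.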
